A study of Homo sapiens with 26 samples.

Results

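Transcripts of the enzymes that build purine and pyrimidine nucleotides were followed in 3 human lung cancer cell lines grown with Omomyc or with its vehicle, phosphate-buffered saline (PBS). The set was a list of 31 genes, taken by gene symbol, in 4 groups: de novo purine synthesis, de novo pyrimidine synthesis, deoxynucleotide synthesis, and salvage. Of these, 28 had a named feature on the array, out of 17687 genes tested, and ADSS2, NME1 and SHMT1 were not analysed here. The measured genes numbered 12 in the purine group, 5 in the pyrimidine group, 7 in the deoxynucleotide group and 4 in the salvage group.

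Omomyc is a small protein derived from the part of MYC, a transcription factor, through which MYC pairs with MAX, and it interferes with that pairing and with DNA binding. Cells were left overnight after plating and then given 12.8 µM Omomyc or vehicle, and the length of exposure is not stated in the labels. H1975 (NCI-H1975, labelled lung adenocarcinoma) had 4 PBS and 5 Omomyc arrays, A549 (labelled lung carcinoma) had 4 and 3, and H1299 (NCI-H1299, labelled lung carcinoma) had 5 and 5. All groups shared the same serum-containing medium, and each line is an established line that stands for 1 tumour. PBS was the only control, so what is specific to Omomyc and what any protein added to the medium would do cannot be told apart.

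Cells make nucleotides in several steps that draw on shared precursors. PRPS1 and PRPS2 activate ribose, and PPAT, GART, PFAS, PAICS, ADSL and ATIC then build the purine ring to inosine monophosphate, with one-carbon units that MTHFD1 helps to supply. IMPDH1, IMPDH2 and GMPS lead on to guanine nucleotides. CAD, DHODH and UMPS build uridine monophosphate, and the CTP synthases CTPS1 and CTPS2 convert the uridine form to the cytidine form. Ribonucleotide reductase, made of RRM1 with RRM2 or RRM2B, makes deoxynucleotides, and TYMS, DTYMK, DUT and DCTPP1 make thymidine nucleotides or clear unwanted ones. TK1, DCK, CMPK1 and GUK1 phosphorylate nucleosides or nucleotides taken back from the cell or the medium. Many of these genes are textbook MYC targets, and several of those for deoxynucleotides are transcribed around the entry into S phase.

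Values are log2 expression as deposited, changes are Omomyc minus PBS on the log2 scale followed by ± and the fit's standard error (SE) from limma, and p-values were adjusted by Benjamini-Hochberg over all 17687 genes. A gene was called at an adjusted p under 0.05. Whether the PBS and Omomyc values of a gene overlap is given as a description only. The share of all genes without overlap is not given here, and groups this small can lie apart without a change. The arrays fell into 3 sets by the distribution of their values, named normalization runs here, of 9, 10 and 7 arrays with array means of 7.08 to 7.12, 7.30 to 7.36 and 6.94 to 6.99. Every run held every group except A549 Omomyc, which had no array in run 3. Each result is therefore also given with the run as an additive block. No label names these runs. The number of 3 was set for the clustering, and whether the sets come from processing or from something else is not known. The highest mean of the 23 background features was 6.69. The number of arrays limits the precision, and the labels call the arrays of a group biological replicas, so p-values measure the spread between these arrays. Among markers, AKR1B10, an NRF2 target known to be high in A549, had a PBS mean of 17.10 in A549 against 3.75 in H1975 and 3.00 in H1299. The epithelial gene EPCAM was at 8.99 in H1975 and 9.54 in A549 and at 3.92 in H1299, below the background maximum. The surfactant genes SFTPA1, SFTPA2, SFTPB and SFTPC and the alveolar gene NAPSA had PBS means of 2.79 to 4.56 in all 3 lines, and the lineage factor gene NKX2-1 was above background in H1975 alone (7.54, against 2.79 in A549 and 2.91 in H1299). Of 5 leukocyte genes, PTPRC, CD3E, CD79A and LYZ had means of 2.80 to 5.12 in the 6 groups, while CD68, also a lysosomal gene, had PBS means of 12.86, 9.09 and 13.34 in H1975, A549 and H1299 and rose in H1975 (1.49, adjusted p = 2.99e-05). The 4 endothelial genes PECAM1, VWF, CDH5 and KDR had means of 2.60 to 3.88. The 3 fibroblast genes measured, COL1A1, COL1A2 and PDGFRB, had PBS means of 9.44, 8.05 and 6.87 in H1975 and of 2.87 to 5.90 in the other lines, and 0 were called with Omomyc in any line by limma (0 at an unadjusted p under 0.05).

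Promoter sequences show how the genes in these results differ around their start sites. RefSeq windows of 300 bases on GRCh38.p14, from 250 bases before to 50 after a start site, were searched on both strands. They covered 28 of the 31 listed genes, with 42 windows in all. These are not the 28 measured genes. They include ADSS2, NME1 and SHMT1, and ADSL, IMPDH2 and RRM2B had no window. The E-box CACGTG, the MYC and MAX binding motif, was in a window of 8 of these 28 genes (28.6%, against 8.77% of all genes with windows). An E2F-type motif, TTCCCGC or TTCGCGC, was in 10 (35.7%, against 10.2%), and the CCAAT box CCAAT in 11 (39.3%, against 39.7%). TGATGCAA, a form of the element bound by ATF4, was in 0 of 28, against 1.08% of all genes. The motifs were matched as letters, and 1 gene can hold several. All genes had 35116 windows for 27305 genes, so the shares are not matched for windows per gene, nor for expression. No share was tested. The 1 E-box that PPAT and PAICS share is counted for each of them. A match is a description of the window and not a binding site. The windows below are those of PAICS, DHODH, TYMS, TK1 and RRM2, taken as up to 2 genes with the smallest p in any line for each motif, written 5′ to 3′ on the strand of the gene with E-box, E2F-type and CCAAT matches in capitals.
PAICS, chr4:56435502-56435801, plus strand, with an E-box whose first base lies 40 bases after the start site: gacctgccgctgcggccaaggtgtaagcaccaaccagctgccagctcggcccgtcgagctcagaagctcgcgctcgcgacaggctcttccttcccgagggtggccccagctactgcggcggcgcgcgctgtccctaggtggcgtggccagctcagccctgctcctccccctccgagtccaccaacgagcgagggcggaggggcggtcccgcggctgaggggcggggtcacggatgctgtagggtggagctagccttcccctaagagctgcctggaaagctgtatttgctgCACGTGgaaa
DHODH, chr16:72008494-72008793, plus strand, with an E-box and a CCAAT box: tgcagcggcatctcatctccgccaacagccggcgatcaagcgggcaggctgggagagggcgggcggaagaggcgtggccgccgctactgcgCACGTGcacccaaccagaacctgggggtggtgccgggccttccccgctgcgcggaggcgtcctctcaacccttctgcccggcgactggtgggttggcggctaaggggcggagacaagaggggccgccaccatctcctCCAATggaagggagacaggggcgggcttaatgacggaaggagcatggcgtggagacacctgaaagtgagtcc
TYMS, chr18:657403-657702, plus strand, with an E2F-type motif: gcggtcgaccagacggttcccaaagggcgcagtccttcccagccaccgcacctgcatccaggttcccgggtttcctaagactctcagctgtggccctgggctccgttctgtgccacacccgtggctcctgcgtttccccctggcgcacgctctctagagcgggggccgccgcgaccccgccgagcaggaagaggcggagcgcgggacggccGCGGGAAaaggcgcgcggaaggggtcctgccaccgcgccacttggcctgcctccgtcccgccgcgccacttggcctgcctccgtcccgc
TK1, chr17:78187003-78187302, minus strand, with an E2F-type motif and 2 CCAAT boxes in the reverse orientation: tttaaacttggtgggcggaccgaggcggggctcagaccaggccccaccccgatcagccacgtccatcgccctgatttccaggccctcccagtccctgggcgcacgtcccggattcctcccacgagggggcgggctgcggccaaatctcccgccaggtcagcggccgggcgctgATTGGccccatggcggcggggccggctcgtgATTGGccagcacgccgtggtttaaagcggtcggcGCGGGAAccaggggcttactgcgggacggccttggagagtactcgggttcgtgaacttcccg
RRM2, chr2:10122489-10122788, plus strand, with 3 CCAAT boxes: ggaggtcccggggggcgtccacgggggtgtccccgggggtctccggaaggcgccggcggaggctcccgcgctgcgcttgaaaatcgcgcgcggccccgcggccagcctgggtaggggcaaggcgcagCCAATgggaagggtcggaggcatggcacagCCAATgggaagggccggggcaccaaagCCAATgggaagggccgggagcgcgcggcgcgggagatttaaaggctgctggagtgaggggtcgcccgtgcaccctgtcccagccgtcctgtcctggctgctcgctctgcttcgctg
PPAT and PAICS, the genes of the first and of a middle step of purine synthesis, are transcribed away from each other, and a RefSeq start site of PAICS, of the 3 in the table, and that of PPAT lie 137 bases apart. The PPAT window, chr4:56435566-56435865 on the minus strand, shares 236 bases with the PAICS window above and holds the same E-box.

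In H1975, 8 of 28 genes fell with Omomyc and 0 rose: PFAS, ADSL, CAD, CTPS1, TYMS, RRM2, DUT and TK1. Over all genes 6.28% were called lower and 5.57% higher. In H1299, 10 of 28 fell and 0 rose: GART, PFAS, PAICS, ADSL, DHODH, CTPS1, TYMS, RRM2, DUT and TK1, where all genes gave 4.52% lower and 4.35% higher. In A549, 1 of 28 fell, TYMS, and 0 rose, where all genes gave 0.277% lower and 0.916% higher. The median change over the 28 genes was -0.09 in H1975, -0.02 in A549 and -0.54 in H1299, beside medians over all genes of 0.00, 0.04 and 0.00. The falls in H1975 and H1299 had 7 genes in common (ADSL, CTPS1, DUT, PFAS, RRM2, TK1 and TYMS), which were 87.5% of the 8 and 70% of the 10. For all genes, 199 were called lower in both, 17.9% of the 1110 in H1975 and 24.9% of the 799 in H1299. These 2 lines share no arrays, but each gene has 1 estimate of spread from all 26 arrays, so their calls are not independent. At an unadjusted p under 0.05, 1 gene was higher in H1975 (PRPS1), 1 in A549 (RRM2) and 2 in H1299 (IMPDH1 and CMPK1).

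**Figure D1:**
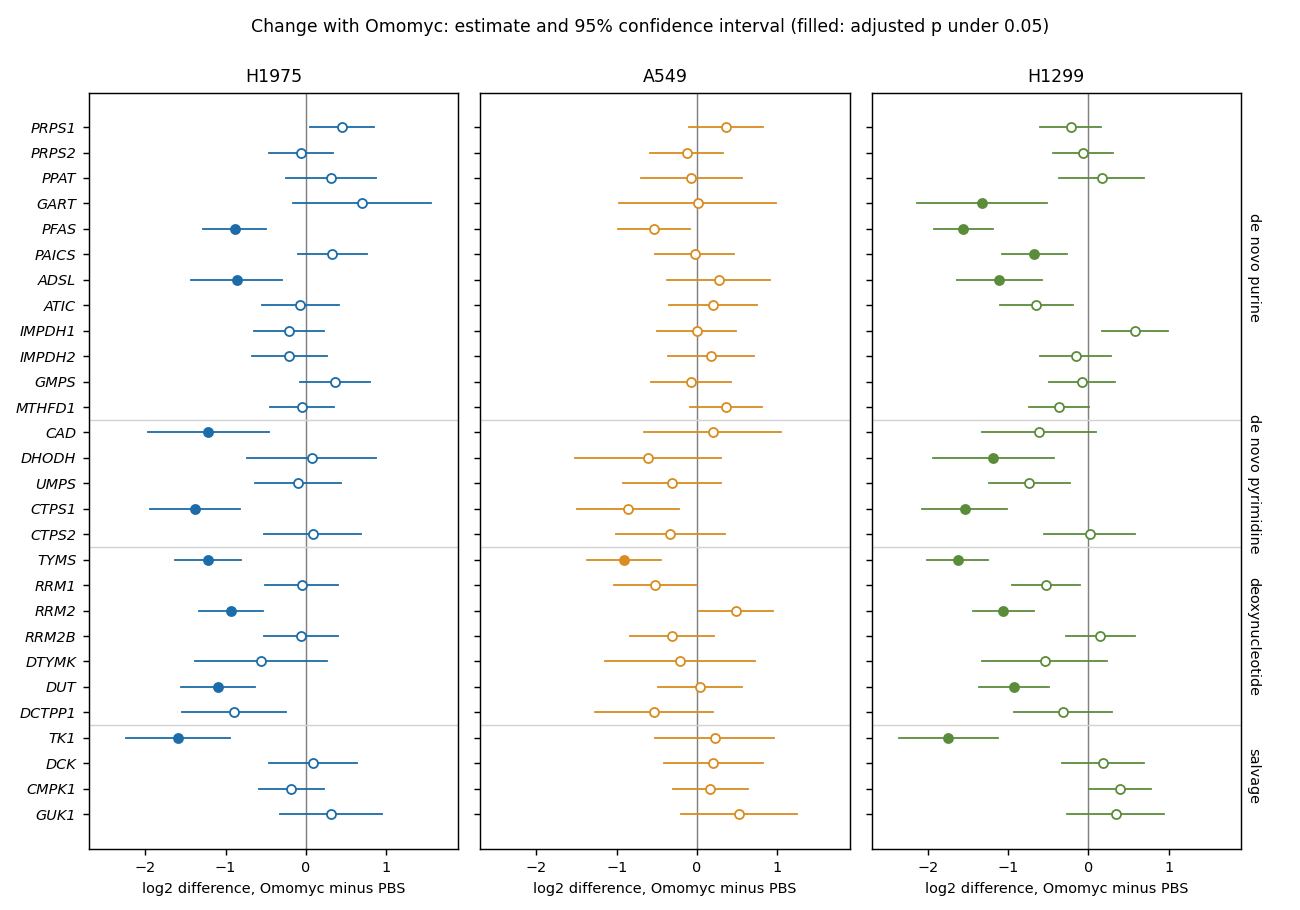
Change with Omomyc (Omomyc minus PBS, log2, x axis) of each of the 28 measured genes (y axis, by group) in H1975, A549 and H1299, with the 95% confidence interval of the limma fit; filled points have an adjusted p under 0.05. All filled points lie left of 0, 8 in H1975, 1 in A549 and 10 in H1299.

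With the run as a block, 9 genes fell and 1 rose in H1975, 3 fell and 0 rose in A549, and 14 fell and 1 rose in H1299. All genes then gave 9.85% lower and 9.37% higher in H1975, 1.13% and 1.71% in A549, and 8.17% and 7.73% in H1299. The added falls were DCTPP1 in H1975, CTPS1 and DHODH in A549, and ATIC, CAD, UMPS and RRM1 in H1299. The added rises were GART in H1975 and IMPDH1 in H1299. Run and replicate number as blocks together ended 6 of the 8 calls in H1975, ADSL (adjusted p = 0.225), CAD (0.0624), TYMS (0.0802), RRM2 (0.114), DUT (0.0685) and TK1 (0.0619), and left PFAS and CTPS1, where 3.51% of all genes were called lower. Same-numbered arrays did not pair in H1975, and that fit had 7 residual degrees of freedom.

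In the deoxynucleotide group, TYMS fell in all 3 lines, and RRM2 and DUT fell in H1975 and H1299. Of 7 measured genes, 3 fell in H1975, 1 in A549 and 3 in H1299, and the median changes were -0.90, -0.31 and -0.54. TYMS, thymidylate synthase, makes thymidine monophosphate from deoxyuridine monophosphate. It read 12.09, 11.57, 11.38 and 11.83 on the PBS arrays of H1975 and 10.76, 9.98, 10.94, 10.47 and 10.33 on the Omomyc arrays. TYMS changed by -1.22 ± 0.20 there (adjusted p = 7.75e-05), and the groups did not overlap. In H1299 it read 13.22, 13.30, 13.28, 12.97 and 13.30 with PBS and 11.86, 11.66, 11.39, 11.55 and 11.45 with Omomyc, again without overlap. The change was -1.63 ± 0.19 (adjusted p = 8.22e-07). In A549 the values were 12.29, 12.31, 11.89 and 11.84 with PBS and 11.14, 11.03 and 11.36 with Omomyc, and every Omomyc array lay under every PBS array. The change of -0.91 ± 0.23 had an adjusted p of 0.0402 in limma, 0.0623 when blocked by replicate number and 0.0108 when blocked by run. Leaving out PBS replicate 1 or 2 ended this call (adjusted p = 0.122 and 0.133), as did leaving out Omomyc replicate 1, 2 or 3 (0.151, 0.177 and 0.0632).

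RRM2, the S-phase subunit of ribonucleotide reductase, read 12.99, 13.03, 12.98 and 12.81 on the PBS arrays of H1975 and 11.91, 11.86, 12.47, 12.37 and 11.49 on the Omomyc arrays. It changed by -0.93 ± 0.20 (adjusted p = 0.00151), with no overlap. The H1299 arrays gave 12.42, 12.70, 13.05, 12.09 and 12.44 with PBS and 11.46, 11.51, 11.34, 11.51 and 11.57 with Omomyc, a change of -1.06 ± 0.19 (adjusted p = 0.000297). A549 went the other way without passing the test: RRM2 read 11.0002, 10.91, 10.94 and 10.68 with PBS and 11.34, 11.32 and 11.44 with Omomyc, a change of 0.48 ± 0.22 (adjusted p = 0.522). Every Omomyc array of A549 lay above its PBS arrays. The large subunit gene RRM1 changed by -0.05, -0.52 and -0.53 in H1975, A549 and H1299, and the p53-induced subunit gene RRM2B by -0.06, -0.31 and 0.15. None of these 6 passed the test, though RRM1 in H1299 did when blocked by run (-0.53, adjusted p = 0.0193). The differences between the changes of the 3 subunit genes were not tested.

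DUT, which removes deoxyuridine triphosphate, read 11.35, 11.18, 10.90 and 11.55 with PBS and 9.92, 10.13, 10.45, 10.58 and 9.66 with Omomyc in H1975. Its change was -1.09 ± 0.22 (adjusted p = 0.00115), and the groups were apart. In H1299 DUT read 12.73, 12.68, 12.72, 12.62 and 12.21 with PBS and 11.47, 11.97, 11.51, 11.91 and 11.46 with Omomyc, a change of -0.93 ± 0.21 (adjusted p = 0.00411), and here too the groups did not overlap. In A549 DUT changed by 0.04 and its groups overlapped. DCTPP1, a pyrophosphatase that clears deoxycytidine triphosphate and its altered forms, changed by -0.90 ± 0.32 in H1975 (adjusted p = 0.0655, and adjusted p = 0.0341 with the run as a block), by -0.54 in A549 and by -0.32 in H1299. DTYMK, thymidylate kinase, changed by -0.55, -0.22 and -0.54 with no call, and its H1299 Omomyc mean of 6.51 lay under the background maximum.

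**Figure D2:**
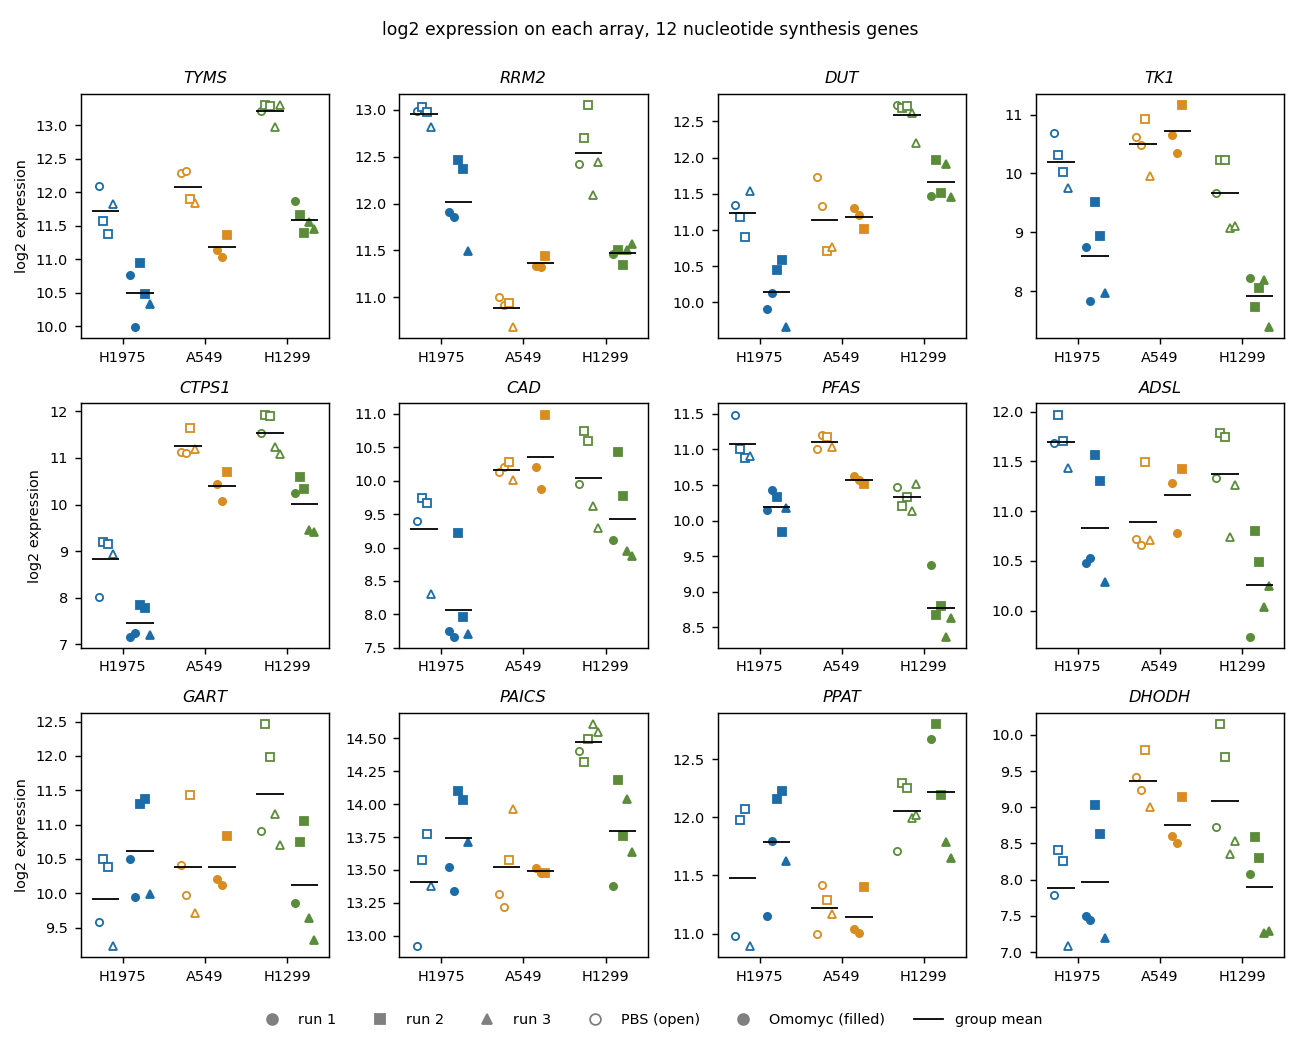
log2 expression (y axis) of 12 genes on every array by cell line (x axis), with open symbols for PBS, filled symbols for Omomyc, the marker shape for the normalization run and a line at the group mean. TYMS, CTPS1 and PFAS have no overlap between treatments in any line, a description without a share over all genes beside it. In A549, CTPS1 and PFAS did not pass the test. The circles, squares and triangles of GART, DHODH and CAD lie at different heights within a group.

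TK1, the S-phase thymidine kinase and the salvage route to thymidine nucleotides, was the salvage gene that fell. In H1975 it read 10.69, 10.31, 10.02 and 9.75 with PBS and 8.76, 7.84, 9.51, 8.94 and 7.97 with Omomyc, and the groups did not overlap. The change of -1.59 ± 0.32 (adjusted p = 0.00087) was the largest of the 28 genes in H1975. It was also the largest in H1299, at -1.74 ± 0.30 (adjusted p = 0.000239), where TK1 read 9.66, 10.23, 10.23, 9.08 and 9.11 with PBS and 8.22, 7.74, 8.06, 8.20 and 7.39 with Omomyc. In A549 TK1 read 10.62, 10.49, 10.93 and 9.96 with PBS and 10.65, 10.34 and 11.16 with Omomyc, which overlap, and it changed by 0.22 ± 0.36 (adjusted p = 0.974). The other salvage genes gave no call in any line. DCK, deoxycytidine kinase, changed by 0.09, 0.20 and 0.18 in H1975, A549 and H1299. CMPK1, which phosphorylates cytidine and uridine monophosphates, changed by -0.18, 0.16 and 0.40. GUK1, guanylate kinase, changed by 0.32, 0.52 and 0.34 and had the smallest p of the group in A549 (adjusted p = 0.813).

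Of the 5 pyrimidine genes, CTPS1 and CAD fell in H1975, CTPS1 and DHODH fell in H1299, and none passed the test in A549. In A549 the smallest p was that of CTPS1, unadjusted p = 0.0102, which was the only one of the 5 under 0.05 there. The group medians were -0.10, -0.73 and -0.33 in H1975, H1299 and A549. CTPS1, CTP synthase 1, read 8.01, 9.20, 9.15 and 8.94 on the PBS arrays of H1975 and 7.16, 7.24, 7.83, 7.77 and 7.20 on the Omomyc arrays. It changed by -1.38 ± 0.27 (adjusted p = 0.000797). The H1299 values were 11.54, 11.93, 11.91, 11.24 and 11.08 with PBS and 10.24, 10.59, 10.33, 9.46 and 9.41 with Omomyc, and the change was -1.54 ± 0.26 (adjusted p = 0.000186). In A549 CTPS1 read 11.13, 11.11, 11.64 and 11.18 with PBS and 10.45, 10.07 and 10.70 with Omomyc. The groups did not overlap in any of the 3 lines, and in A549 the change was -0.86 ± 0.31 (adjusted p = 0.275), or -0.94 (adjusted p = 0.00963) with the run as a block. CTPS2, the second CTP synthase, changed by 0.08, -0.33 and 0.02 in H1975, A549 and H1299, and its H1299 values are at the level of background features.

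CAD, which carries the first 3 activities of the pathway, read 9.39, 9.74, 9.66 and 8.31 with PBS and 7.75, 7.67, 9.22, 7.95 and 7.71 with Omomyc in H1975. It changed by -1.21 ± 0.37 (adjusted p = 0.0273), and the groups overlapped through Omomyc replicate 3, of run 2, and PBS replicate 4, of run 3. Within runs 1, 2 and 3 the change was -1.68, -1.11 and -0.60. The call was lost without PBS replicate 1 (adjusted p = 0.0647), 2 (0.104) or 3 (0.0893) or without Omomyc replicate 1 (0.0664), 2 (0.0711) or 5 (0.0625). CAD changed by 0.19 in A549 and by -0.61 in H1299, where blocking by run gave a call (adjusted p = 0.041). DHODH, the mitochondrial step, read 8.73, 10.15, 9.69, 8.35 and 8.53 with PBS and 8.07, 8.59, 8.30, 7.26 and 7.30 with Omomyc in H1299, and the run 2 arrays were the highest of each group. The change was -1.18 ± 0.37 (adjusted p = 0.0402). It was lost without PBS replicate 2 (adjusted p = 0.145) or 3 (0.113) or without Omomyc replicate 1 (0.0600), 4 (0.117) or 5 (0.115). DHODH changed by 0.07 in H1975 and by -0.61 in A549, the latter called when blocked by run (-0.80, adjusted p = 0.0292). UMPS, the last step to uridine monophosphate, changed by -0.10, -0.31 and -0.73 in H1975, A549 and H1299 and was called in H1299 only when blocked by run (adjusted p = 0.0109).

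Among the purine genes, PFAS and ADSL fell in both H1975 and H1299, GART and PAICS fell in H1299, and 8 of the 12 measured genes gave no call in any line. The counts were 2 lower in H1975, 0 in A549 and 4 in H1299, with group medians of -0.06, -0.0003 and -0.29. PFAS, the fourth step of the ring, read 10.48, 10.20, 10.33, 10.13 and 10.51 with PBS and 9.38, 8.68, 8.79, 8.37 and 8.63 with Omomyc in H1299. Its change there was -1.56 ± 0.18 (adjusted p = 9.17e-07). In H1975 PFAS read 11.49, 11.01, 10.88 and 10.91 with PBS and 10.15, 10.43, 10.33, 9.85 and 10.18 with Omomyc, a change of -0.89 ± 0.19 (adjusted p = 0.00192). In A549 it read 11.0010, 11.20, 11.18 and 11.03 and 10.62, 10.57 and 10.51, also apart, and its change of -0.53 ± 0.22 had the smallest p of the purine genes there (unadjusted p = 0.0206, adjusted p = 0.388). No line had an overlap between the PBS and Omomyc values of PFAS.

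ADSL, which acts in ring synthesis and again on the way to adenine nucleotides, read 11.68, 11.97, 11.70 and 11.43 with PBS and 10.48, 10.53, 11.57, 11.31 and 10.29 with Omomyc in H1975. The change was -0.86 ± 0.27 (adjusted p = 0.0373), and Omomyc replicate 3 lay within the PBS range. That call was lost without PBS replicate 1 (adjusted p = 0.0704), 2 (0.121) or 3 (0.0734) or without Omomyc replicate 1 (0.0997), 2 (0.0940) or 5 (0.106). In H1299 ADSL read 11.33, 11.78, 11.74, 10.74 and 11.27 with PBS and 9.74, 10.80, 10.48, 10.04 and 10.24 with Omomyc, a change of -1.11 ± 0.26 (adjusted p = 0.00496). The groups overlapped between PBS replicate 4 and Omomyc replicate 2. In A549 ADSL changed by 0.27 with no call.

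GART, a protein with 3 activities of the ring pathway, read 10.90, 12.47, 11.98, 11.16 and 10.71 with PBS and 9.86, 10.75, 11.05, 9.63 and 9.31 with Omomyc in H1299. It changed by -1.32 ± 0.39 (adjusted p = 0.0306). Its values differed by run, with the run 2 arrays (replicates 2 and 3) highest in both groups, and within runs 1, 2 and 3 the change was -1.04, -1.32 and -1.46. The call was lost without PBS replicate 2 (adjusted p = 0.111) or 3 (0.0844) or without Omomyc replicate 1 (0.0735), 4 (0.0832) or 5 (0.101). In H1975 GART read 9.58, 10.50, 10.38 and 9.23 with PBS and 10.50, 9.95, 11.30, 11.37 and 9.98 with Omomyc. The change there was 0.70 ± 0.42 (adjusted p = 0.362), and with the run as a block it was called higher (0.79, adjusted p = 0.00133). In A549 GART changed by 0.01.

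PAICS and PPAT, whose start sites lie 137 bases apart, were read together. PAICS read 14.40, 14.32, 14.49, 14.61 and 14.55 with PBS and 13.38, 14.18, 13.76, 14.04 and 13.64 with Omomyc in H1299, without overlap, and changed by -0.67 ± 0.20 (adjusted p = 0.0283). PPAT read 11.71, 12.29, 12.25, 11.99 and 12.02 with PBS and 12.67, 12.80, 12.19, 11.78 and 11.65 with Omomyc in H1299, where it changed by 0.16 ± 0.26 (adjusted p = 0.841) and the groups overlapped. The difference between these 2 changes was not tested. The PAICS call was lost with each array centred on its median (adjusted p = 0.0970) and without PBS replicate 3 (0.0526), 4 (0.0658) or 5 (0.0604) or Omomyc replicate 1 (0.0976), 3 (0.0555) or 5 (0.0686). In H1975 PAICS changed by 0.33 and PPAT by 0.31, and in A549 by -0.03 and -0.07, with no call.

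ATIC, the enzyme of the last ring steps, changed by -0.07, 0.20 and -0.65 in H1975, A549 and H1299, the last called only when blocked by run (adjusted p = 0.022) or the replicate block (adjusted p = 0.0227). IMPDH1, of guanine nucleotide synthesis, read 7.74, 7.57, 7.64, 7.59 and 7.67 with PBS and 8.37, 8.58, 8.07, 7.85 and 8.24 with Omomyc in H1299, so that every Omomyc array lay above every PBS array. Its change of 0.58 ± 0.20 did not pass the test (adjusted p = 0.0711) and did so when blocked by run (adjusted p = 0.0335). IMPDH1 changed by -0.21 in H1975 and -0.01 in A549. IMPDH2, the other isoform, changed by -0.20, 0.17 and -0.16 in H1975, A549 and H1299, and GMPS, the next step, by 0.37, -0.08 and -0.08. Among the suppliers, PRPS1 changed by 0.45, 0.36 and -0.22, PRPS2 by -0.06, -0.13 and -0.07, and MTHFD1 by -0.05, 0.36 and -0.36. None of these was called in any line.

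**Figure D3:**
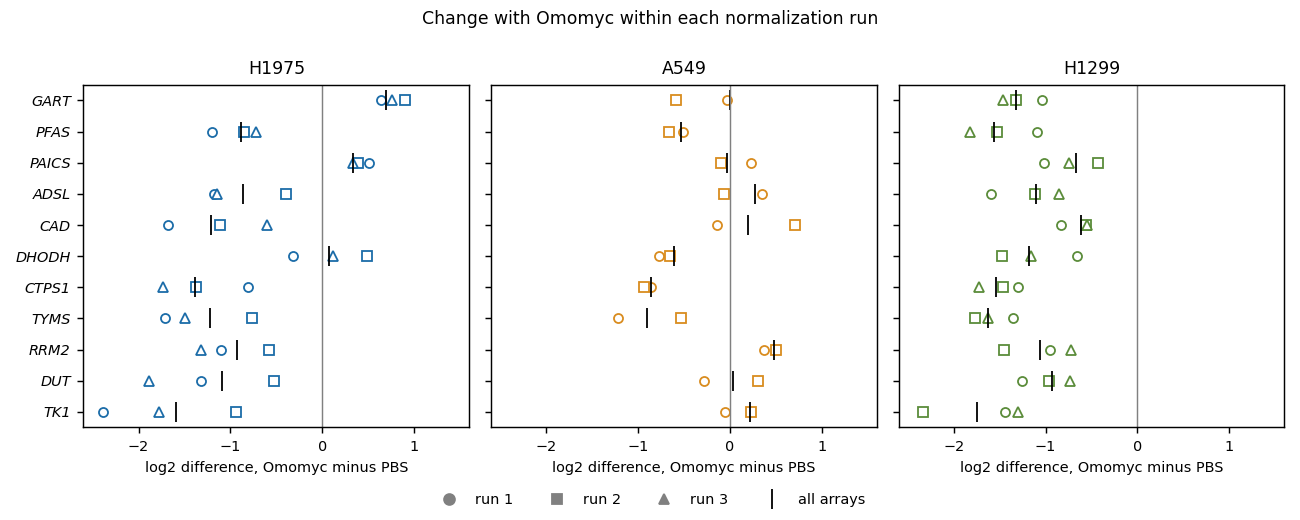
Change with Omomyc (log2, x axis) of the 11 genes called in H1975 or H1299 (y axis), computed within each normalization run (circle, square and triangle for runs 1, 2 and 3) and over all arrays (bar). In H1299 every within-run value lies below 0; in A549 run 3 has no Omomyc array, and some runs hold 1 array of a treatment.

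Within runs, the 10 genes called in H1299 had a change below 0 in all 3 runs. The 8 called in H1975 also did, and ADSL, TYMS, RRM2, DUT and TK1 changed least in run 2. TYMS changed by -1.72, -0.77 and -1.50 in runs 1, 2 and 3 of H1975, by -1.22 and -0.53 in runs 1 and 2 of A549, and by -1.36, -1.77 and -1.63 in the runs of H1299. TK1 changed by -2.39, -0.94 and -1.78 in H1975 and -1.44, -2.33 and -1.30 in H1299. RRM2 in A549 was at 0.37 and 0.50, above 0 in both runs that held Omomyc arrays.

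Genes with a motif in their promoter windows were set beside these calls as a description. Of the 7 measured genes with an E-box (ATIC, DCK, DCTPP1, DHODH, MTHFD1, PAICS and PPAT), 0 were called lower in H1975, 0 in A549 and 2 in H1299, DHODH and PAICS. Of the 10 with an E2F-type motif (DCK, DUT, GART, GUK1, PAICS, PRPS1, PRPS2, RRM1, TK1 and TYMS), 3 were called lower in H1975, 1 in A549 and 5 in H1299. Of the 9 with a CCAAT box, 3 were called lower in H1975, 0 in A549 and 4 in H1299. Over all 28 measured genes the counts were 8, 1 and 10. These counts include ADSL, called lower in H1975 and H1299, which had no window and so was not searched. IMPDH2 and RRM2B, called in no line, were not searched either. No difference between motifs was tested. CTPS1 and PFAS, called lower in H1975 and H1299, held none of the searched motifs in their windows.

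The lines were then compared in their response, by testing the difference between the changes of each pair of lines. RRM2 and TK1 separated A549 from both other lines, PFAS separated A549 from H1299, and GART and PAICS separated H1975 from H1299. Calls were made for 2 of 28 genes between H1975 and A549 (4.62% of all genes), 2 between H1975 and H1299 (5.70%) and 3 between A549 and H1299 (2.47%). The 2 counts that involve H1975 are near their backgrounds, and that between A549 and H1299 is above its own, with no test of that. The comparisons share each line's arrays. For RRM2, the H1975 change minus the A549 change was -1.41 ± 0.30 (adjusted p = 0.00419), and the A549 change minus the H1299 change was 1.54 ± 0.29 (adjusted p = 0.0025). TK1 gave -1.81 ± 0.48 (adjusted p = 0.0252) and 1.96 ± 0.47 (adjusted p = 0.0205) in the same comparisons. Both genes are classed with S phase, and in A549 neither passed the test. PFAS, A549 minus H1299, gave 1.02 ± 0.28 (adjusted p = 0.0486). GART, H1975 minus H1299, gave 2.02 ± 0.57 (adjusted p = 0.0317), the changes being 0.70 and -1.32. PAICS gave 1.00 ± 0.29 (adjusted p = 0.0345), from changes of 0.33 and -0.67.

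Several of these calls were lost when any 1 of several arrays was left out, with estimates of the same sign. The TK1 difference between H1975 and A549 was lost without H1975 PBS replicate 1 (adjusted p = 0.0582), H1975 Omomyc replicate 2 (0.0518), A549 PBS replicate 4 (0.0620), or A549 Omomyc replicate 1 (0.0504) or 3 (0.0914). Between A549 and H1299 the TK1 difference was lost without A549 PBS replicate 4 (0.0519) or A549 Omomyc replicate 3 (0.0785). GART was lost without H1975 PBS replicate 1 or 4, H1975 Omomyc replicate 3 or 4, H1299 PBS replicate 2 or 3, or H1299 Omomyc replicate 1, 4 or 5 (adjusted p of 0.0568 to 0.0833). PAICS was lost without H1975 PBS replicate 1 or 4, H1975 Omomyc replicate 3 or 4, H1299 PBS replicate 3, 4 or 5, or H1299 Omomyc replicate 1, 3 or 5 (0.0528 to 0.0964). PFAS was lost without any 1 of the A549 arrays, of H1299 PBS replicates 1, 2, 3 and 5 and Omomyc replicates 2 to 5, or of H1975 PBS replicates 2, 3 and 4 and Omomyc replicates 1, 2, 3 and 5 (0.0506 to 0.120). The PFAS estimate itself stayed at 1.02 without each of those H1975 arrays, which are not part of that comparison. RRM2 kept both calls without any single array. With the run as a block the counts were 7, 3 and 5 of 28, where all genes gave 10.3%, 11.7% and 6.41%. That added DUT, ADSL, CAD, DHODH and GART between H1975 and A549, DHODH between H1975 and H1299, and ADSL and GART between A549 and H1299.

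In vehicle-treated cells the lines differed in the level of many of these genes, as they did over the whole array. Between H1975 and A549, 11 of 28 differed (38.3% of all genes), between H1975 and H1299 17 (42.0%), and between A549 and H1299 19 (41.5%). The shares are near those of all genes in the first pair and above them in the others, with no test of that. All genes include many dim ones, and their median level of 6.48 lies under the background maximum of 6.69. The PBS means of these 28 genes lay above 6.69, except that of CTPS2 in H1299. The shares are thus not matched for level. These contrasts use the same PBS arrays as the Omomyc contrasts, so the values are given side by side and not related to each other. Means ± SD over the PBS arrays (n = 4, 4 and 5 for H1975, A549 and H1299) are compared per gene between lines.

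The largest gap was in CTPS2, at 11.13 ± 0.47 in H1975 and 11.07 ± 0.42 in A549 and 3.66 ± 0.60 in H1299. All 5 PBS arrays of H1299, at 4.38, 3.86, 3.83, 2.77 and 3.45, lay under the background maximum of 6.69, so only a bound holds: CTPS2 was at least 21.8-fold higher in H1975 and at least 20.8-fold higher in A549, computed as the bright group's mean against 6.69. The limma differences of the means as read had adjusted p = 1.47e-18 for H1975 and 1.31e-18 for A549. The bounds themselves were not tested. CTPS1, the other isoform, was lowest in H1975, at 8.83 ± 0.55, against 11.27 ± 0.25 in A549 and 11.54 ± 0.38 in H1299. The H1975 differences were -2.44 ± 0.29 (adjusted p = 4.21e-08) and -2.72 ± 0.27 (adjusted p = 1.75e-09), and A549 and H1299 did not differ beyond their spread (adjusted p = 0.483). H1299 thus had CTPS1 and not CTPS2 above background, and A549 had both.

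The isoforms of inosine monophosphate dehydrogenase also parted by line. IMPDH1 was at 9.57 ± 0.36 in H1975, 9.64 ± 0.35 in A549 and 7.64 ± 0.07 in H1299, lower in H1299 than in H1975 (difference 1.93 ± 0.21, adjusted p = 8.9e-09) and A549 (2.00 ± 0.21, adjusted p = 4.69e-09). IMPDH2 was lowest in A549, at 10.62 ± 0.46 against 13.25 ± 0.20 in H1975 and 13.77 ± 0.27 in H1299. Its differences were 2.63 ± 0.24 (adjusted p = 2.7e-10) for H1975 minus A549 and -3.15 ± 0.23 (adjusted p = 1.56e-12) for A549 minus H1299. GMPS was at 11.48 ± 0.31, 11.32 ± 0.14 and 13.17 ± 0.21 in H1975, A549 and H1299, highest in H1299 (adjusted p = 1.1e-07 and adjusted p = 2.14e-08). ATIC was lowest in H1975, at 10.82 ± 0.16 against 12.93 ± 0.25 and 12.69 ± 0.40, with differences of -2.11 ± 0.25 (adjusted p = 3.66e-08) and -1.87 ± 0.23 (adjusted p = 1.13e-07).

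For RRM2B, RRM2 and MTHFD1 the widest of the 3 gaps between lines was that of H1975 and A549. RRM2B was at 9.09 ± 0.34 in H1975, 10.97 ± 0.20 in H1299 and 11.85 ± 0.13 in A549, and all 3 pairs differed (H1975 minus A549 -2.76 ± 0.24, adjusted p = 7.12e-11). RRM2 ran the other way, at 10.88 ± 0.14 in A549, 12.54 ± 0.36 in H1299 and 12.95 ± 0.09 in H1975. A549 was lower than H1975 (difference 2.07 ± 0.21, adjusted p = 1.82e-09) and H1299 (-1.66 ± 0.20, adjusted p = 4.26e-08), while H1975 minus H1299 was 0.41 ± 0.20 and not called (unadjusted p = 0.0447, adjusted p = 0.0967). MTHFD1 was at 12.34 ± 0.14 in A549, 13.74 ± 0.25 in H1299 and 14.15 ± 0.17 in H1975, and A549 was lower than both (adjusted p = 1.86e-08 and adjusted p = 6.04e-07). Genes that fell with Omomyc went both ways in their PBS level. TYMS was higher in H1299 than in H1975 and A549 (PBS means 13.21, 11.72 and 12.08), and so was DUT (12.59, 11.24 and 11.14). PFAS had its lowest PBS mean in H1299 (10.33, against 11.07 and 11.10), and so did TK1 (9.66, against 10.19 and 10.50).

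**Figure D4:**
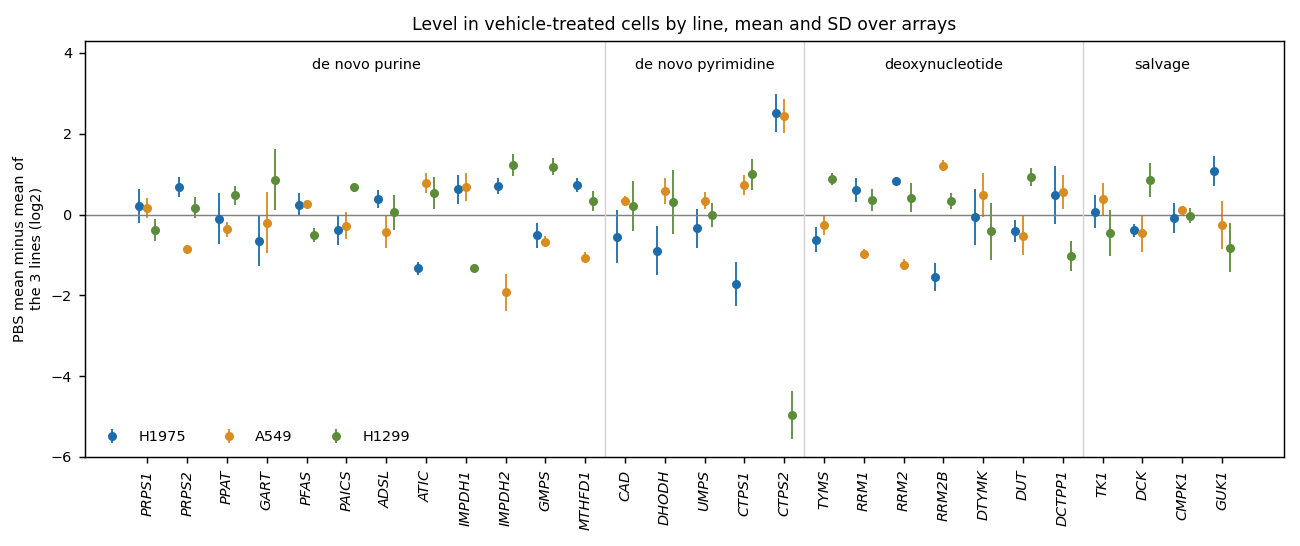
PBS level of each of the 28 genes (x axis, by group) in each line, as the mean minus the mean of the 3 line means (log2, y axis), with bars for the SD over 4, 4 and 5 arrays. CTPS2 stands farthest from 0, low in H1299 and high in H1975 and A549. The low points of IMPDH2 in A549 and of CTPS1, RRM2B and ATIC in H1975 come next.

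Genes around these pathways were read from lists chosen with earlier results of these data known. Beside their counts, all genes gave 6.28% lower and 5.57% higher in H1975. They gave 0.277% and 0.916% in A549, and 4.52% and 4.35% in H1299. Of 32 DNA replication genes of the G1-S step, 16 fell in H1975, 1 in A549 and 26 in H1299, 0 rose in any line, and the medians were -0.92, -0.33 and -1.32. UHRF1 (-2.57 ± 0.25) and the helicase subunit gene MCM3 (-2.24 ± 0.24) had the smallest p in H1975, CCNE1, cyclin E1, was the call in A549 (-1.16 ± 0.26), and CDC45 (-2.39 ± 0.28) and MCM6 (-2.22 ± 0.30) had the smallest p in H1299. The replication clamp gene PCNA changed by -1.83, -0.53 and -1.42 in H1975, A549 and H1299, called in the first and last. E2F1 changed by -1.18, -0.17 and -1.25, called in the same lines, with all group means under the background maximum. Of 18 G2-M genes, 0 were called in H1975 and A549 and 1 fell in H1299, BIRC5 (-1.07 ± 0.32). At an unadjusted p under 0.05, 0, 1 and 0 of the G1-S genes were higher in H1975, A549 and H1299, and 2, 2 and 4 of the G2-M genes differed in either direction. With the run as a block, 18, 4 and 28 of the G1-S genes fell in H1975, A549 and H1299 (9.85%, 1.13% and 8.17% of all genes). Of the G2-M genes, 2 then rose in H1975 (9.37% of all genes), 1 fell in A549 and 4 fell in H1299. In bulk samples, fewer cells in a phase and less RNA per cell cannot be told apart. The part of the G1-S genes in the falls of TYMS, RRM2, DUT and TK1 was not tested.

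MYC itself changed by 0.97 ± 0.20 in H1975 (adjusted p = 0.00119) and -1.15 ± 0.19 in H1299 (adjusted p = 0.000135), in opposite directions, and by -0.23 in A549. Its partner MAX changed by -0.92 and -0.75 in H1975 and H1299, both called, and by 0.94 in A549. ATF4, the regulator of amino acid and one-carbon genes under stress, rose by 1.15 ± 0.19 in H1975 (adjusted p = 7.36e-05) and was not called in A549 (0.43) or H1299 (-0.43).

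Genes of one-carbon and amino acid supply were tested for a difference in response between lines. Between H1975 and H1299, 6 of 19 folate and one-carbon genes were called, all with a higher change in H1975. Of 8 glutamine and aspartate genes 2 were higher and 1 lower in H1975 (5.70% of all genes were called in either direction). A549 minus H1299 gave 5 folate and 3 glutamine and aspartate genes higher and 0 lower (2.47% of all genes). H1975 minus A549 gave 2 folate genes higher and 1 lower, and 1 and 1 of the other list (4.62%). Of the 19 folate and one-carbon genes, 4 rose and 3 fell in H1975, 1 rose and 0 fell in A549, and 0 rose and 8 fell in H1299. Over all genes, 5.57% rose and 6.28% fell in H1975, 0.916% and 0.277% in A549, and 4.35% and 4.52% in H1299. With the run as a block, 6 of these 19 rose and 4 fell in H1975 (9.37% and 9.85% of all genes). In A549 1 rose and 1 fell then (1.71% and 1.13%), and in H1299 0 rose and 11 fell (7.73% and 8.17%). ALDH1L2, a mitochondrial folate enzyme, changed by 2.41 ± 0.24, 1.36 ± 0.28 and -2.45 ± 0.23 in H1975, A549 and H1299, and all 3 were called. PHGDH, the first step of serine synthesis, rose by 2.63 ± 0.27 in H1975 (adjusted p = 9.15e-08) and fell in H1299 (-2.25 ± 0.26, adjusted p = 7.96e-07). PSAT1, the second step, fell in H1299 (-2.37 ± 0.17, adjusted p = 3.18e-10), and its change in H1975 was 0.03 with no call. The folate carrier gene SLC19A1 fell in both (-1.53 and -0.89), and so did PSPH (-0.97 and -1.17). Of 8 genes of glutamine and aspartate supply, 1 rose and 2 fell in H1975, 0 were called in A549, and 4 fell in H1299. The asparagine synthetase gene ASNS changed by 2.14 ± 0.28 in H1975 and -2.40 ± 0.26 in H1299. The mitochondrial aspartate carrier gene SLC25A12 fell in both lines (-0.98 and -0.85) and SLC25A13 in H1975 (-2.19, against -0.44 with no call in H1299). The glutamine transporter gene SLC1A5 fell in H1299 (-1.46), and in H1975 its change was 0.67 with no call.

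Other neighbouring lists gave fewer calls. Over all genes, 5.57% were called higher and 6.28% lower in H1975, and 4.35% and 4.52% in H1299. Counts as small as those below are not set apart from these shares, and no list was tested against them. Of 14 further salvage genes, 1 rose and 1 fell in H1975 (UPP1, uridine phosphorylase, 1.43; UPRT -0.77), and 1 rose and 2 fell in H1299 (TK2 0.86; UPP1 -1.49 and APRT -1.17). Of 23 genes of nucleotide breakdown, 2 rose and 3 fell in H1975, with AMPD3 (2.31, from a PBS mean under background) and AMPD2 (0.84) higher. The dNTP hydrolase gene SAMHD1 (-1.77 ± 0.21) was lower there, and so was XDH, whose means lay under background in every group. In H1299 2 rose, AMPD3 (1.51) and GDA (0.90), and 2 fell, NUDT1 (-1.39) and NT5C2 (-0.99). Of 10 genes of ribose phosphate supply, TKT rose (0.70) and RPE fell (-0.79) in H1299. Of 8 nucleoside transporter genes, SLC29A2 was called higher, from and to means under background, and SLC29A3 fell (-1.58) in H1975. In A549, 0 genes of these 4 lists were called by limma, and 5 had an unadjusted p under 0.05. Of 9 nucleotide kinase genes 0 were called in any line by limma without a block, and at an unadjusted p under 0.05 there were 2 in H1975, 0 in A549 and 1 in H1299. With the run as a block, 2 of these 9 fell in H1975, where 9.85% of all genes were called lower. The mean of the lower group lay under the background maximum for CDC45, AMPD3, TK2 and NUDT1 in H1299 and for AMPD3 in H1975, so the size of their change is uncertain. Some 1 left-out array ended the calls of PSPH, SLC25A12, UPRT and XDH in H1975, of ALDH1L2 and CCNE1 in A549, and of MAX, SLC25A12, BIRC5, TKT, RPE, APRT, TK2 and GDA in H1299, with adjusted p of up to 0.164.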

How the data were processed

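Biotin-labelled RNA of 26 samples was hybridised to single-colour arrays. By their range the deposited numbers are log2 expression values, and RMA and Partek are named, without versions, in the submitters' processing notes. Background correction, normalization across arrays and the annotation build are not stated in the labels. There were 24351 features, with values of 1.35 to 19.91. Of these, 17709 had 1 gene symbol and 6642 had none. They gave 17687 genes, and for 20 genes with over 1 feature the brightest on average was kept. Each listed gene measured had 1 feature.

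limma 3.58.1 (R 4.3.3) was run (lmFit, then eBayes) on all 26 arrays with a term for each group, leaving 20 residual degrees of freedom. The members and lists were chosen with earlier results of these data known. Runs were found by clustering the sorted values of each array without labels (average linkage, 3 clusters). Named genes follow a rule: every member by its change, and in full the 2 called members with the smallest p of each group and line, up to 6 called members per comparison of lines, up to 2 called genes per direction, line and neighbouring list, up to 2 members per promoter motif, and MYC, MAX, MXD4, ATF4, E2F1 and PCNA always (MXD4 was not analysed here).

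PBS and Omomyc arrays of the same replicate number deviated together, with correlations of 0.26 to 0.39 in H1299 and 0.11 to 0.20 in A549, and not in H1975 (-0.20 to 0.33). With the run removed no correlation was over 0.08. The fit was tested on simulated data. Promoter windows came from RefSeq on GRCh38.p14, and no genome or protein sequence was used here. Alternatives were quantile normalization, median centring, a filter on dim genes, the mean of features, each line alone, trend and robust settings, array weights, the replicate block, the run as a block, both blocks, each run alone, other thresholds, and leaving out each array.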

Additional observations from a re-analysis of the deposited data

Results flagged for a closer look

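In 140 groups of 4 or 5 arrays, 7 held an array far from the others of its group, and chance gives about 1 in 20. ADSL read 11.49 and CTPS1 read 11.64 on A549 PBS replicate 3, against 10.65 to 10.72 and 11.11 to 11.18 on the other PBS arrays. That array is the only A549 PBS array of run 2. CAD read 9.22 on H1975 Omomyc replicate 3, of run 2, against 7.67 to 7.95. RRM2B read 8.16 on H1975 Omomyc replicate 5, of run 3, against 9.20 to 9.29. TYMS read 12.97 on H1299 PBS replicate 4 against 13.22 to 13.30, and DUT read 12.21 on H1299 PBS replicate 5 against 12.62 to 12.73, both of run 3. GUK1 read 14.51 on H1975 PBS replicate 1, of run 1, against 13.73 to 13.82. The part of the runs in these values was not tested.

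The response differed between lines for 5 genes in 7 tests of the difference. RRM2 differed by -1.41 between H1975 and A549 and by 1.54 between A549 and H1299. TK1 differed by -1.81 and 1.96 in the same comparisons. GART differed by 2.02 and PAICS by 1.00 between H1975 and H1299, and PFAS by 1.02 between A549 and H1299.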

How the results depend on the processing

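No called change of a member turned direction under any alternative. Among the 19 calls of members in the 3 lines, those lost at the main threshold, other than within single runs or without single arrays, were ADSL and CAD in H1975 with each line alone (adjusted p = 0.0767 and 0.0501) and with run and replicate block together (0.225 and 0.0624), TYMS, RRM2, DUT and TK1 in H1975 with both blocks (0.0802, 0.114, 0.0685 and 0.0619), TYMS in A549 with median centring (0.0984), the line alone (0.158) or the replicate block (0.0623), and PAICS (median centring, 0.0970) and DHODH (line alone, 0.0635) in H1299. The replicate block alone ended no other of these calls. It left 9 residual degrees of freedom, and with the run 7.

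Counts of members called moved by over 1.5 times as follows. H1975 (8 called) gave 2 with run and replicate block together, 5, 1 and 4 in runs 1, 2 and 3 alone, and 5 at a fold change of at least 2. A549 (1 called) gave 2 with quantile normalization, 3 with the run as a block, 2 with both blocks, and 0 in limma with the line alone, the replicate block, run 1 or 2 alone, an adjusted p under 0.01, or a fold change of at least 2 (5 genes had an unadjusted p under 0.05 in the full fit). H1299 (10) gave 0 in run 1 and 6 in run 3. The response differences between H1975 and A549 (2) gave 5 with quantile normalization, 4 with array weights, 1 with the replicate block, 7 with the run as a block, 0 with both blocks, 0 in run 1 or 2, and 1 at an adjusted p under 0.01. Those between H1975 and H1299 (2) gave 1 with the 2 lines alone, 0 in run 1, 1 in run 3, and 0 at an adjusted p under 0.01. Those between A549 and H1299 (3) gave 5 with the run as a block, 0 in run 1, 1 in run 2, and 1 at an adjusted p under 0.01. The PBS levels of A549 and H1299 (19) gave 12 in run 1. A run alone holds 1 array of some groups, which is then assumed to vary as the others do. Leaving out 1 array gave 6 to 9 in H1975, 0 to 1 in A549 and 7 to 12 in H1299, 1 to 3, 0 to 2 and 1 to 4 for the response differences in the order above, and 10 to 12, 15 to 18 and 16 to 20 for the PBS levels. The cause of these shifts was not tested.

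A549 had 7 arrays and no Omomyc array in run 3, which limits its precision. Signals under 6.69, as for CTPS2 in H1299, carry no size of change.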
